A study of Mus musculus with 2 samples.

Results

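The 8 genes described here encode receptors for cytokines that act on blood cells, and 1 ligand of such a receptor, and were measured in cells of mouse embryos made of *Gata1*- and wildtype cells. They are *Kit*, *Flt3*, *Csf1r*, *Epor*, *Csf2rb*, *Csf3r*, *Il6st* and *Kitl*, chosen by name as columns of the spliced and unspliced count tables, 8 of 29453 genes. A pool of 6 chimeric embryos was dissociated and sorted by tdTomato, and each fraction gave 1 droplet-based scRNA-Seq library. The tdTom+ fraction holds the progeny of 1 male embryonic stem cell clone with a frameshift mutation in *Gata1* and a constitutive tdTomato marker, derived from a cross of a ROSA26tdTomato male with a wildtype C57BL/6 female. The tdTom- fraction holds the cells of the C57BL/6 host blastocysts into which that clone was injected. No agent was given to either. The age labels give the tdTom+ sample as E8.5 and the tdTom- sample as E8.6, although both sample titles give E8.5 and both came from the same pool. With 1 clone and 1 library per fraction, an effect of *Gata1* loss cannot be told apart from an effect of the clone, the strain or the library, and no difference below has a replicate check.

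*Kit*, *Flt3* and *Csf1r* are receptor tyrosine kinases of the same class, which dimerize on binding their ligand and phosphorylate themselves. *Kit* binds stem cell factor, the product of *Kitl*, which is made by cells around blood, germ and pigment cell precursors. *Epor*, *Csf2rb*, *Csf3r* and *Il6st* belong to the cytokine receptors that lack a kinase of their own and signal through JAK kinases and STAT factors. *Epor* binds erythropoietin and sustains red cell precursors, *Csf2rb* is the shared beta chain of the receptors for IL-3, IL-5 and GM-CSF, *Csf3r* binds G-CSF in neutrophil precursors, and *Il6st* encodes gp130, the shared chain of the IL-6 family. In the E8.5 yolk sac, blood progenitors give rise to primitive red cells, the first megakaryocytes and the first myeloid cells. *Gata1* encodes the zinc finger factor that red cells and megakaryocytes need to mature.

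The promoters of 3 of the genes are shown because, among the genes with an entry, the results in blood turn on them: *Epor* and *Kit* in red cell precursors and progenitors, *Csf3r* in myeloid cells. The sequences are from RefSeq on GRCm38.p6 and run from 250 bases before to 50 bases after the RefSeq start of the gene, on its own strand. Capitals mark matches to the GATA words, which are AGATAA or its variant AGATAG and also TGATAA or its variant TGATAG, or to the ETS words, which are AGGAAG or else GGGAAG, on both strands.
Epor promoter: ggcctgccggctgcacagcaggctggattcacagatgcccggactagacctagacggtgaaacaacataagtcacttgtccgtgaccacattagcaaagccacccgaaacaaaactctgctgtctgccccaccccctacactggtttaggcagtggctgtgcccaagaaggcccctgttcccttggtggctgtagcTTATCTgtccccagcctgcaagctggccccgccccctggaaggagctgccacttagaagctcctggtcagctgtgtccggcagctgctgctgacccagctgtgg
Kit promoter: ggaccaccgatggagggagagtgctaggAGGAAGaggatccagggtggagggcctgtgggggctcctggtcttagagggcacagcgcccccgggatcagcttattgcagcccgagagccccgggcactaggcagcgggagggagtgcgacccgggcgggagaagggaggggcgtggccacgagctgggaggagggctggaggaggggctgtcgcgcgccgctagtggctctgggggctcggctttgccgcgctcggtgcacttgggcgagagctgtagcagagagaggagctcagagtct
Csf3r promoter: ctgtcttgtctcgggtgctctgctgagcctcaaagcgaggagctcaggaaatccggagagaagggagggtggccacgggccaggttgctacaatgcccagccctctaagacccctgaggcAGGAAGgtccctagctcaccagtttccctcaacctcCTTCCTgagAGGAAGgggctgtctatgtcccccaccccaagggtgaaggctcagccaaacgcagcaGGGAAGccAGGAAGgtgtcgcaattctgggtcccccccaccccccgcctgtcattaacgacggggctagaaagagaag
The *Epor* window, chr9:21963527-21963826 on the minus strand, held 1 GATA match, TTATCT, which begins 54 bases before the start. The *Kit* window, chr5:75574737-75575036 on the plus strand, held 1 ETS match at 222 bases before the start and no GATA match. The *Csf3r* window, chr4:126024409-126024708 on the plus strand, held 5 ETS matches between 130 and 20 bases before the start. Of the 6 genes with an entry in the promoter table, 1 held a GATA match and 5 an ETS match. Of all 32851 promoters of the same length, 29.8% held a GATA match, 55.0% an ETS match and 0.517% at least 5 ETS matches. A match describes the letters in this window and no more, and *Csf2rb* and *Csf1r* had no entry.

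The genes lie apart in the genome, with the exception of *Csf2rb* and its close paralog *Csf2rb2*. In GRCm38, *Kit* is at chr5:75574916-75656722 and *Kitl* at chr10:100015630-100100416, both on the plus strand. *Epor* is at chr9:21958897-21963506 on the minus strand, *Csf3r* at chr4:126024550-126044440 on the plus strand, and *Il6st* at chr13:112464070-112510086 on the plus strand. *Csf2rb* is at chr15:78325752-78353847 on the plus strand, next to *Csf2rb2* at chr15:78282507-78305721 on the minus strand, and reads of the pair may have been split between them. *Flt3*, at chr5:147330741-147400489 on the minus strand, overlaps an annotated antisense gene.

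The tables held 8981 tdTom+ and 9252 tdTom- barcodes, with 167940767 and 157174026 spliced UMIs and medians of 17598 and 15996 per cell. Scrublet called 4.39% and 5.6% of them doublets, and 8569 and 8722 cells were kept. A total of 18 barcode sequences occurred in both libraries. As a check of the labels, spliced *Gata1* stood at 6.73 CPM (UMIs per 1000000 spliced UMIs of the same cells) in tdTom+ and at 29.3 CPM in tdTom- cells. Cell types were rebuilt from fixed markers, and the authors' own assignments were not used here. The 8 genes, their companions in the pathways and *Gata1* took no part in the clustering.

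Most blood groups held cells of 1 fraction. The 1426 tdTom+ blood progenitor-like cells, which carried *Runx1*, *Gata2* and *Myb*, fell into sub-clusters 0 (572 cells), 3 (347), 10 (210) and 4 (297), and only 8 tdTom- cells joined them. Sub-cluster 4 was led by *Spi1* and *Rac2*, which myeloid cells also use, and had 4 of 7 myeloid markers raised. The 380 early and 1011 later erythroid-like cells were tdTom-, beside 3 tdTom+ cells. Early names the erythroid-like sub-cluster to which the largest number of tdTom+ cells was matched in the comparison below, and later names the others. The names were thus not set by maturity. Summed over 7 erythroid markers, the tdTom- cells stood at 52768 CPM in the early and 110497 CPM in the later group. There were 54 tdTom- megakaryocyte-like cells and 1 tdTom+ cell. Myeloid-like cells (194 tdTom+, 29 tdTom-) and 4 endothelial-like sub-clusters (506 tdTom+, 368 tdTom-) held both fractions.

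*Kit* was high in tdTom+ progenitors and low in the wildtype erythroid-like cells. Among the tdTom+ progenitors it was at 75.4 CPM (95% Poisson interval 70.7 to 80.4) in sub-cluster 0, at 87.0 CPM in sub-cluster 10, at 107 CPM in sub-cluster 3 and at 182 CPM (172 to 193) in sub-cluster 4. Their lowest interval lay above the level in wildtype early erythroid-like cells, 12.9 CPM (10.4 to 15.8). Later erythroid-like cells stood at 3.73 CPM (2.93 to 4.69), 3.45-fold below the early ones. Intervals here and below cover counting error only.

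Outside the progenitors, myeloid-like cells had *Kit* at 99.4 CPM (tdTom+) and 30.8 CPM (tdTom-), and at 23.9 CPM (15.3 to 35.6) in tdTom- megakaryocyte-like cells. In endothelial-like cells it peaked at 96.4 CPM (tdTom+) and 73.3 CPM (tdTom-) in the sub-cluster led by *Cldn5* and *Rasip1*. Gut endoderm-like cells stood at 45.5 and 33.5 CPM, surface ectoderm-like cells at 29.4 and 23.4 CPM, and cardiomyocyte-like cells at 1.84 and 1.98 CPM. The wildtype early erythroid-like level did not lie apart from that of neural-like cells, 10.7 CPM (9.49 to 12).

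Among blood groups with at least 20 cells, *Epor* was highest in the host erythroid-like cells. It was at 77.5 CPM (71.2 to 84.2) in early and 88.0 CPM (83.9 to 92.2) in later erythroid-like cells of the host, and at 47.8 CPM (35.2 to 63.4) in megakaryocyte-like cells. In tdTom+ progenitors it was at 54.8 CPM (50.7 to 59.1) in sub-cluster 0, 54.5 CPM in sub-cluster 3, 42.5 CPM in sub-cluster 10 and 23.6 CPM (20 to 27.6) in sub-cluster 4. The *Spi1*-led sub-cluster thus had the highest *Kit* and the lowest *Epor* level of the 4. Outside blood, *Epor* was at 7.94 CPM (tdTom+) and 7.72 CPM (tdTom-) in the endothelial-like sub-cluster led by *Lyve1* and *Plvap*, and at 12 and 15.4 CPM in notochord-like cells, the latter from 7 and 8 UMIs.

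*Csf2rb* was high in host erythroid-like cells and low in tdTom+ progenitors. Host erythroid-like cells were at 105 CPM (97.8 to 113) early and 142 CPM (137 to 148) later, and megakaryocyte-like cells at 51.8 CPM (38.7 to 67.9). The 4 tdTom+ progenitor sub-clusters lay between 10.0 CPM in sub-cluster 3 and 20 CPM (16.7 to 23.7) in sub-cluster 4. All of these intervals stood below those of the host erythroid-like and megakaryocyte-like cells. Among the 4 later erythroid-like sub-clusters the level ran from 108 to 162 CPM, while *Epor* ran only from 81.1 to 94.7 CPM. The paralog *Csf2rb2* was also lower in the progenitors, with 9.69 and 11.2 CPM in early and later erythroid-like cells and 0.668 to 3.30 CPM in the progenitors. The 8 tdTom- progenitor-like cells held 1 *Csf2rb* UMI, at 9.78 CPM (0.248 to 54.5), so a low level was not seen in tdTom+ progenitors alone. Their 11 *Epor* UMIs gave 108 CPM (53.7 to 192) and their 3 *Kit* UMIs 29.3 CPM (6.05 to 85.7).

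*Csf1r* is the receptor for M-CSF on macrophages, and myeloid-like cells had the highest level of it and of *Csf3r* in both fractions. Of the 90 *Csf1r* UMIs in the tdTom+ library 65 were in the 194 myeloid-like cells, at 17.8 CPM (13.7 to 22.6), and 4 UMIs in the 29 tdTom- myeloid-like cells gave 8.81 CPM (2.40 to 22.6). The tdTom- library had 25 *Csf1r* UMIs in all, of which 7 were in gut endoderm-like cells, more than in its few myeloid-like cells. The same cells had *Csf3r* at 10.4 CPM (7.34 to 14.2) where tdTom+ and 17.6 CPM (7.61 to 34.7) where tdTom-. The intervals of the fractions overlap for both genes. A second place of *Csf3r* was the *Lyve1*-led endothelial-like sub-cluster, with 4 UMIs in each fraction (1.87 and 3.43 CPM). The tdTom+ progenitors of sub-cluster 4 held 1 *Csf1r* and 2 *Csf3r* UMIs in 297 cells. *Flt3*, a receptor of early lymphoid and myeloid progenitors, gave 4 spliced UMIs in 8569 tdTom+ cells and 1 in 8722 tdTom- cells, so no level by group could be given.

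**Figure D1:**
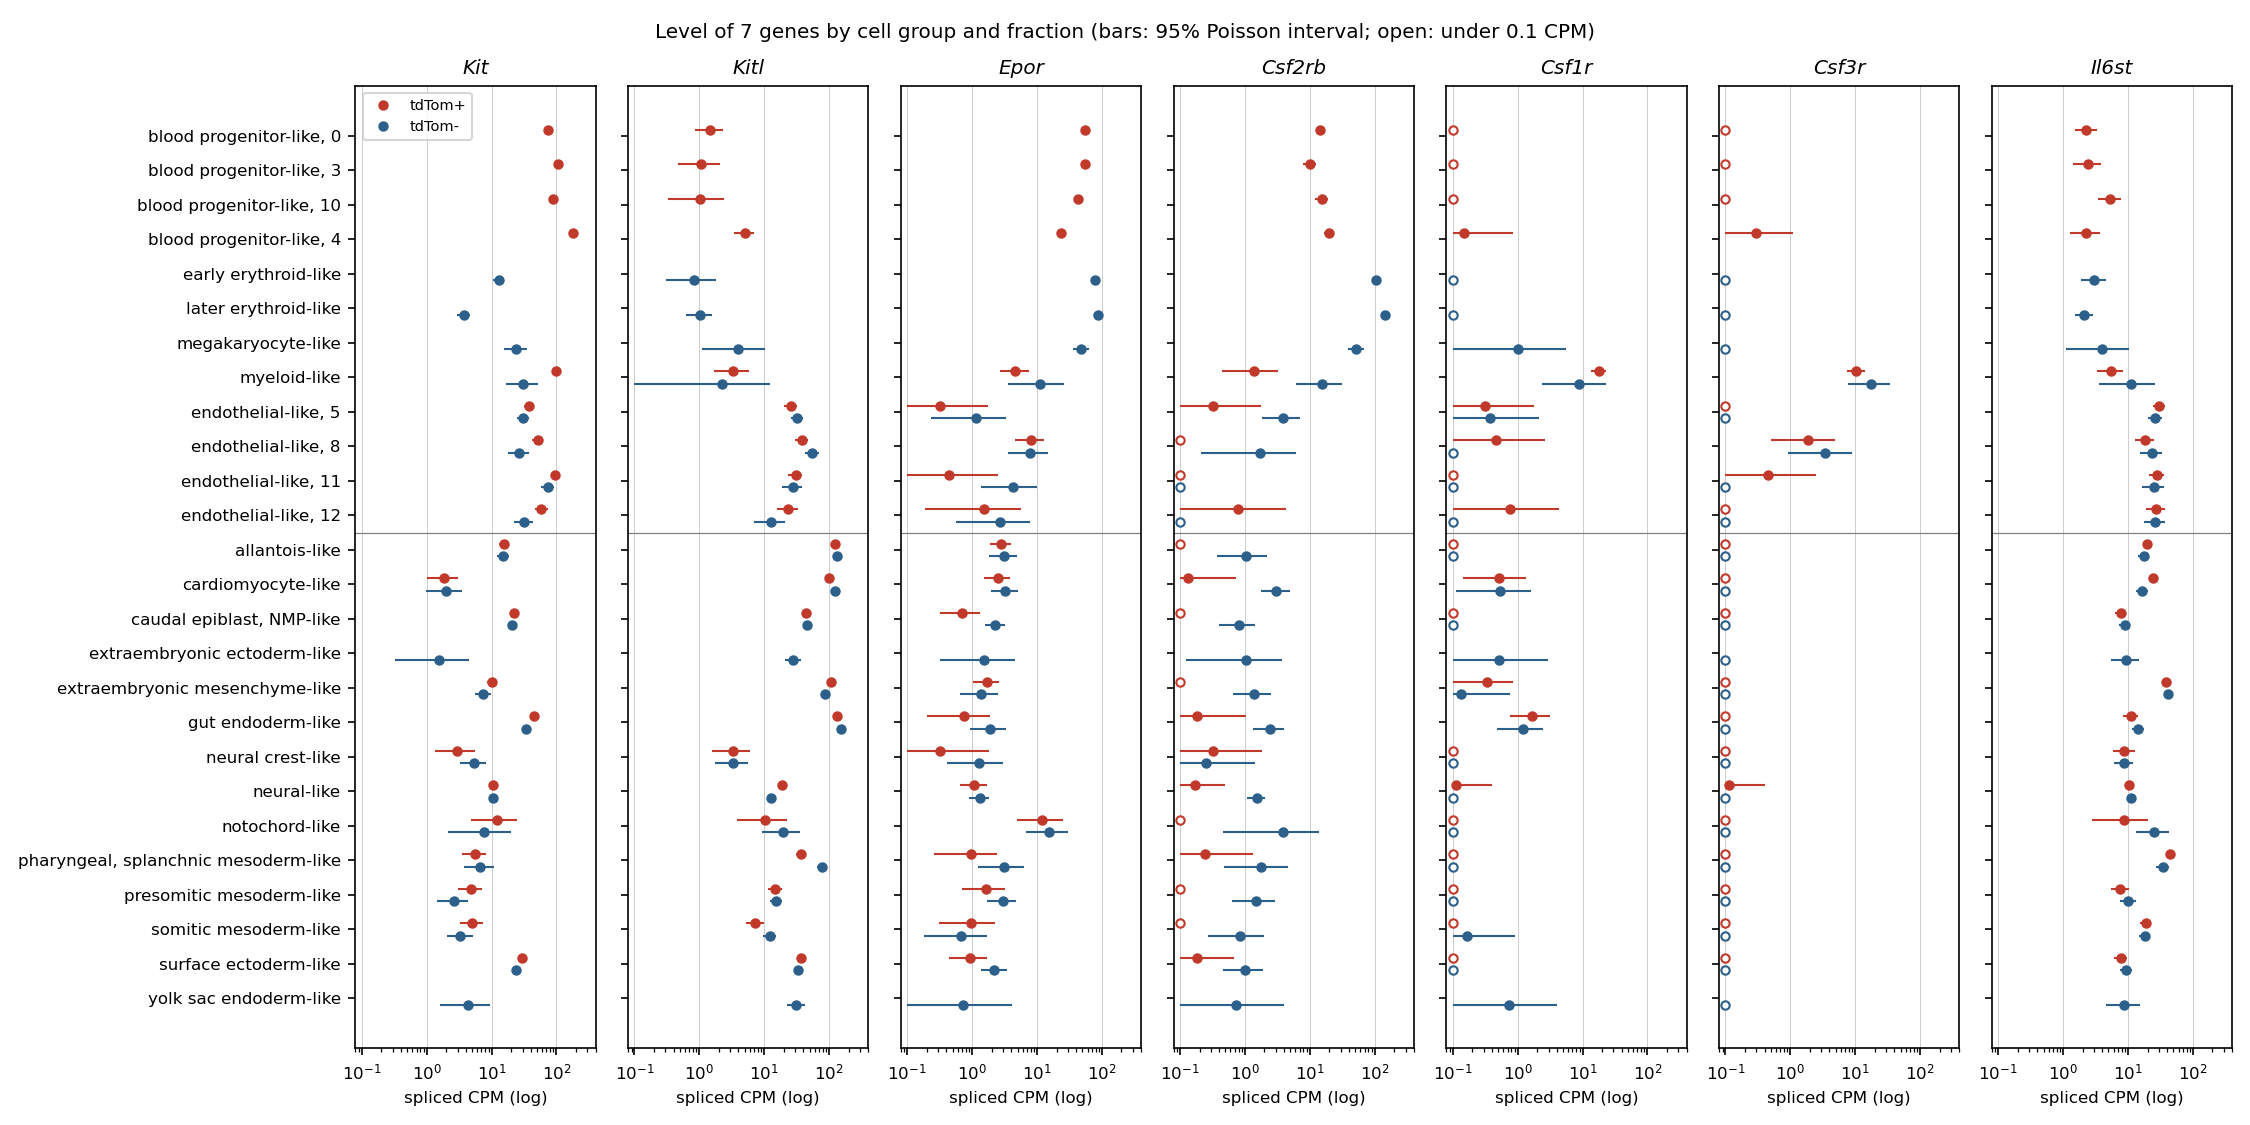
Level of 7 of the genes in spliced CPM (log axis) by cell group, with tdTom+ in red, tdTom- in blue, points for the summed UMIs of all cells of a group, bars for the 95% Poisson interval and open circles for levels under 0.1 CPM. *Kit* is at 75.4 to 182 CPM in the 4 tdTom+ progenitor sub-clusters and at 12.9 and 3.73 CPM in the early and later erythroid-like cells, while *Csf2rb* is at 10.0 to 20 CPM in the former and at 105 and 142 CPM in the latter.

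The plot of levels by cell group shows *Kitl* and *Il6st* low in progenitors and erythroid-like cells and higher in most other tissues. *Kitl* was at most 4.96 CPM in any tdTom+ progenitor sub-cluster and at 0.83 and 1.01 CPM in the erythroid-like cells. It was at 131 and 152 CPM in gut endoderm-like cells of tdTom+ and tdTom- origin, at 124 and 132 CPM in allantois-like cells, at 99.3 and 123 CPM in cardiomyocyte-like cells and at 105 and 85.5 CPM in extraembryonic mesenchyme-like cells. The allantois-like cells of the fractions came from different clusters, a tdTom+ one led by *Tbx4* and *Pitx1* and a tdTom- one led by *Cdkn1c* and *Phlda2*.

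Within classes *Kitl* was uneven. Cardiomyocyte-like cells led by *Sfrp5* and *Wnt2* were at 162 CPM (tdTom+) and 197 CPM (tdTom-), and those led by *Myl3* and *Actc1* at 13.7 and 15 CPM. Gut endoderm-like cells led by *Nepn* and *Apela* stood at 250 and 231 CPM, and those led by *Pyy* and *Spink1* at 70.5 and 83.4 CPM. In both classes the clusters differed by far more than the fractions did. *Kit* was also present in the *Nepn*-led cluster, at 52.1 and 30.4 CPM, so ligand and receptor were found in the same cell group there. Across 76 cell groups, each a cluster of 1 fraction with at least 20 cells, Pearson's r of *Kit* with *Kitl* was -0.07 on the log2(CPM + 10) scale. These groups share 2 libraries, and r is given as a description.

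*Il6st* was measured in every tissue and was low in progenitors and erythroid-like cells. It was at 37.8 and 40.8 CPM in extraembryonic mesenchyme-like cells, at 44.1 and 34.2 CPM in pharyngeal and splanchnic mesoderm-like cells and at 26.2 and 25.4 CPM in endothelial-like cells. Progenitors were at 2.77 CPM (2.22 to 3.42) and erythroid-like cells at 2.37 CPM (1.82 to 3.02), and these intervals overlap. Within the progenitors, sub-cluster 10 stood at 5.26 CPM (3.44 to 7.71) and the other 3 between 2.25 and 2.41 CPM. Myeloid-like cells were at 5.46 CPM (3.34 to 8.44) where tdTom+ and at 11 CPM (3.58 to 25.7, from 5 UMIs) where tdTom-. The tdTom+ interval overlaps that of all progenitors only between 3.34 and 3.42 CPM, and no fold between them was taken.

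To compare the fractions in like cells, the 15 nearest tdTom- neighbours of every tdTom+ haemato-endothelial cell were found, the cell took their commonest sub-cluster, and the summed counts were set against the tdTom- cells of that sub-cluster. Of the tdTom- cells themselves, 94.6% were matched back to their own sub-cluster. The same components had defined those sub-clusters, so this share does not show how alike the matched tdTom+ cells were. Counted as past 2-fold were genes with at least 100 UMIs over both fractions and a fold of 2 or more. A gene could reach this minimum through the fraction where it was high, so such counts are a description. The early erythroid-like comparison held 1319 tdTom+ cells, nearly all of them progenitors by their own sub-cluster, and 380 tdTom- cells.

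*Kit* had 2964 UMIs in the tdTom+ cells and 93 in the tdTom- cells of this comparison, or 101 against 12.9 CPM. The tdTom+ level was 7.88-fold higher, or 2.98 on the log2 scale (95% exact interval 2.68 to 3.29). Over the alternatives run this fold was from 2.64 to 5.39, the highest with the level in neural-like cells subtracted. *Csf2rb* was 6.89-fold lower, at 15.3 against 105 CPM from 446 and 760 UMIs, a log2 fold of -2.78 (-2.96 to -2.61). The stem cell factor receptor and the beta chain therefore lay on opposite sides of 0. *Epor* was 1.59-fold lower, at 48.7 against 77.5 CPM, a log2 fold of -0.67 (-0.81 to -0.53) that excludes 0 but stays within 2-fold. *Il6st* was at 2.81 against 3.04 CPM, a log2 fold of -0.12 (-0.81 to 0.63). Of the 4 genes with at least 100 UMIs, 1 was higher and 1 lower past 2-fold, beside 6.33% of 8451 genes higher and 2.82% lower. *Kitl*, *Csf3r*, *Csf1r* and *Flt3* had at most 32 UMIs in the tdTom+ and 6 in the tdTom- cells, and their folds are not given.

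The cells compared differed in more than these genes. *Gata1* itself was at 30.6 against 143 CPM. The 7 erythroid markers summed to 18360 against 52768 CPM, with 0 of 7 higher in tdTom+ cells, the 6 progenitor markers to 611 against 199 CPM, with 6 of 6 higher, and the 7 myeloid markers to 14.9 against 1.52 CPM, with 7 of 7 higher. The megakaryocyte markers summed to 22.5 against 64.6 CPM, with 3 of 7 higher, and the endothelial markers to 9.38 against 27.8 CPM, with 3 of 6 higher. How far this state of the cells accounts for the levels of *Kit*, *Epor* and *Csf2rb* was not tested. Within the host, where *Gata1* is intact, later against early erythroid-like cells had *Kit* 3.45-fold lower, a log2 fold of -1.79 (-2.25 to -1.33), *Csf2rb* 1.35-fold higher (0.44, 0.32 to 0.56) and *Epor* 1.14-fold higher (0.18, 0.05 to 0.32).

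Only 12 tdTom+ cells were nearest to later erythroid-like cells, against 1011 tdTom- cells. Their 31 *Kit* UMIs gave 154 CPM against 3.73 CPM, their 9 *Epor* UMIs 44.8 against 88.0 CPM and their 3 *Csf2rb* UMIs 14.9 against 142 CPM. With the pooled counts, 2 genes (*Kit* higher, *Csf2rb* lower) passed 2-fold, beside 12.1% of 7005 genes higher and 11.5% lower. *Il6st* had 1 UMI in the tdTom+ and 42 in the tdTom- cells, *Kitl* 0 and 20, *Csf1r* 0 and 1, and *Csf3r* and *Flt3* 0 in both. *Gata1* was at 69.7 against 129 CPM, the erythroid markers summed to 36403 against 110497 CPM, with 0 of 7 higher in tdTom+ cells, and the progenitor markers to 522 against 167 CPM, with 5 of 6 higher. The myeloid markers summed to 24.9 against 0.505 CPM, with 3 of 7 higher and 4 at 0 in both. Their part in these levels was not tested. All folds of this comparison rest on 12 tdTom+ cells, and over the alternatives run *Kit* was from 3.77 to 5.98, *Csf2rb* from -3.85 to -1.15 and *Epor* from -2.38 to -0.62 on the log2 scale. A Leiden resolution of 2 matched 180 tdTom+ cells in place of 12, and cosine distance also matched more, with *Kit* at 4.76. At that resolution *Kit* was at 3.77.

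The megakaryocyte-like comparison (84 tdTom+, 54 tdTom- cells) gave *Kit* at 189 against 23.9 CPM from 321 and 24 UMIs. That is 7.92-fold higher among the tdTom+ cells, or 2.99 on the log2 scale (2.39 to 3.65). *Kit* was the only one of the 8 with at least 100 UMIs there, beside 1.8% of 3658 genes higher and 2.1% lower past 2-fold. It reached that minimum through its tdTom+ UMIs, so this count is not read as a result about the 8 genes. The other receptors of this lineage had fewer counts and lay on the other side of 0. *Csf2rb* was at 8.25 against 51.8 CPM (14 and 52 UMIs), a log2 fold of -2.65 (-3.62 to -1.78), and *Epor* at 12.4 against 47.8 CPM (21 and 48 UMIs), a log2 fold of -1.95 (-2.76 to -1.18). *Kitl* had 4 UMIs in each fraction, *Il6st* 2 and 4, *Csf1r* 0 and 1, and *Csf3r* and *Flt3* 0. Over the alternatives run, *Csf2rb* was from -3.49 to -1.77 and *Epor* from -2.22 to -1.35. The tdTom+ cells came mainly from the *Spi1*-led sub-cluster (72 of 84). Their 7 megakaryocyte markers summed to 176 against 462 CPM, with 0 of 7 higher, and their progenitor markers to 901 against 419 CPM, with 6 of 6 higher. Myeloid markers summed to 310 against 126 CPM, with 6 of 7 higher, and endothelial markers to 51.3 against 113 CPM, with 0 of 6 higher. Erythroid markers summed to 3433 against 4398 CPM, with 1 of 7 higher, and *Gata1* was at 18.9 against 149 CPM. The part of these in the *Kit*, *Csf2rb* and *Epor* levels was not tested.

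In the myeloid-like comparison (205 tdTom+, 29 tdTom- cells) *Kit* was at 107 against 30.8 CPM from 419 and 14 UMIs. It was 3.46-fold higher among the tdTom+ cells, or 1.79 on the log2 scale (1.03 to 2.68). *Kit* was again the only one of the 8 with at least 100 UMIs, beside 3.19% of 4954 genes higher and 1.55% lower. It reached that minimum through its tdTom+ UMIs, so this count is not read as a result about the 8 genes. For the receptors of M-CSF and G-CSF the interval included 0: *Csf1r* was at 16.8 against 8.81 CPM, a log2 fold of 0.93 (-0.49 to 2.85), and *Csf3r* at 9.94 against 17.6 CPM, a log2 fold of -0.83 (-1.94 to 0.48). *Csf2rb* was at 1.27 against 15.4 CPM from 5 and 7 UMIs, a log2 fold of -3.60 (-5.60 to -1.72). Over the alternatives run it was from -5.30 to -1.78, and *Csf1r* went from -0.21, with the mean of the CPM of each cell, to 1.15. *Epor* was at 4.59 against 11 CPM (-1.26, -2.75 to 0.52) and *Il6st* at 5.35 against 11 CPM (-1.04, -2.49 to 0.72), each with 5 tdTom- UMIs. *Kitl* had 13 UMIs and 1 UMI, and *Flt3* 0 in both. *Csf2ra*, the alpha chain of the GM-CSF receptor, named here after its values were seen, lay on the other side of 0, at 17.3 against 2.20 CPM from 68 UMIs and 1 UMI (2.98, 0.45 to 8.30). Myeloid markers summed to 1211 against 652 CPM, with 5 of 7 higher in tdTom+ cells, and endothelial markers to 318 against 648 CPM, with 0 of 6 higher. Progenitor markers summed to 643 against 494 CPM, with 4 of 6 higher, megakaryocyte markers to 162 against 280 CPM, with 2 of 7 higher, and *Gata1* was at 2.29 against 6.61 CPM. At a Leiden resolution of 2 the class split, and the cluster with 5 endothelial markers raised held 23 of the 29 tdTom- cells and 110 tdTom+ cells, the other 6 and 95. *Kit* there was at 1.78 over the class. The part of these differences in the folds was not tested.

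Endothelial-like cells hold both fractions in number (510 and 368 cells). *Kit*, present on endothelium that can give rise to blood, was at 58.7 against 38.4 CPM from 523 and 233 UMIs, a log2 fold of 0.61 (0.39 to 0.84) or 1.53-fold. By sub-cluster it was at 38.1 against 30.8 CPM in the one led by *Etv2* and *Kdr*, at 51.9 against 26.6 CPM in the *Lyve1*-led one, at 96.4 against 73.3 CPM in the one led by *Cldn5* and *Rasip1*, and at 58.7 against 31.6 CPM in the one led by *Emcn* and *Cldn5*. The tdTom+ level was the higher in all 4, and the interval of the log2 fold excluded 0 in 3, the exception being the *Etv2*-led one (0.31, -0.11 to 0.73). In the cells compared, progenitor markers summed to 126 against 117 CPM, with 6 of 6 higher in tdTom+ cells, myeloid markers to 14.5 against 9.06 CPM, with 5 of 7 higher, endothelial markers to 872 against 976 CPM, with 1 of 6 higher, and erythroid markers to 182 against 1460 CPM, with 0 of 7 higher. Their part in the *Kit* level was not tested. *Kitl* was at 32.1 CPM in both fractions over all these cells. The 510 tdTom+ cells included 2 progenitor-like and 2 myeloid-like cells by their own sub-cluster. Without these, *Kitl* was at 29.3 CPM (25.9 to 33.1) in tdTom+ cells, beside 32.1 CPM (27.8 to 37.0) in tdTom- cells. Nor was *Kitl* equal in each sub-cluster. It was at 37.8 against 54.9 CPM in the *Lyve1*-led one (-0.54, -1.03 to -0.04) and at 23.2 against 12.6 CPM in the *Emcn*-led one (0.87, -0.09 to 1.90). *Il6st* was at 26.0 against 25.4 CPM. *Epor* had 21 and 20 UMIs (-0.48, -1.44 to 0.48), *Csf2rb* 2 and 12, *Csf3r* 5 and 4, *Csf1r* 3 and 1, and *Flt3* 0 in both. None of the 3 genes with at least 100 UMIs passed 2-fold, beside 0.151% of 7970 genes higher and 0.464% lower.

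Outside blood and endothelium, 25 pairs of a gene and a cell class had at least 100 UMIs over 11 classes, and 1 of the 25 passed 2-fold, beside 0.768% of the 86677 pairs over all genes. The exception was *Kitl* in pharyngeal and splanchnic mesoderm-like cells, at 36.3 CPM (tdTom+) and 76.3 CPM (tdTom-), or -1.07 (-1.40 to -0.75) as a log2 fold. With cells thinned to 5000 UMIs it was -0.89 and the count 0, and with the neural-like level subtracted it was -1.85 and the count 3. *Kit* had at least 100 UMIs in 6 of these classes and was within 2-fold in each. The interval excluded 0 in gut endoderm-like (0.44, 0.17 to 0.72) and surface ectoderm-like cells (0.33, 0.08 to 0.59), with the higher level in tdTom+ cells, and included it in extraembryonic mesenchyme-like cells (0.45, -0.02 to 0.94). It also included 0 in the other 3, at 10.5 and 10.7 CPM in neural-like, 22.3 and 20.6 CPM in caudal epiblast and neuromesodermal progenitor-like and 15.3 and 15 CPM in allantois-like cells.

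**Figure D2:**
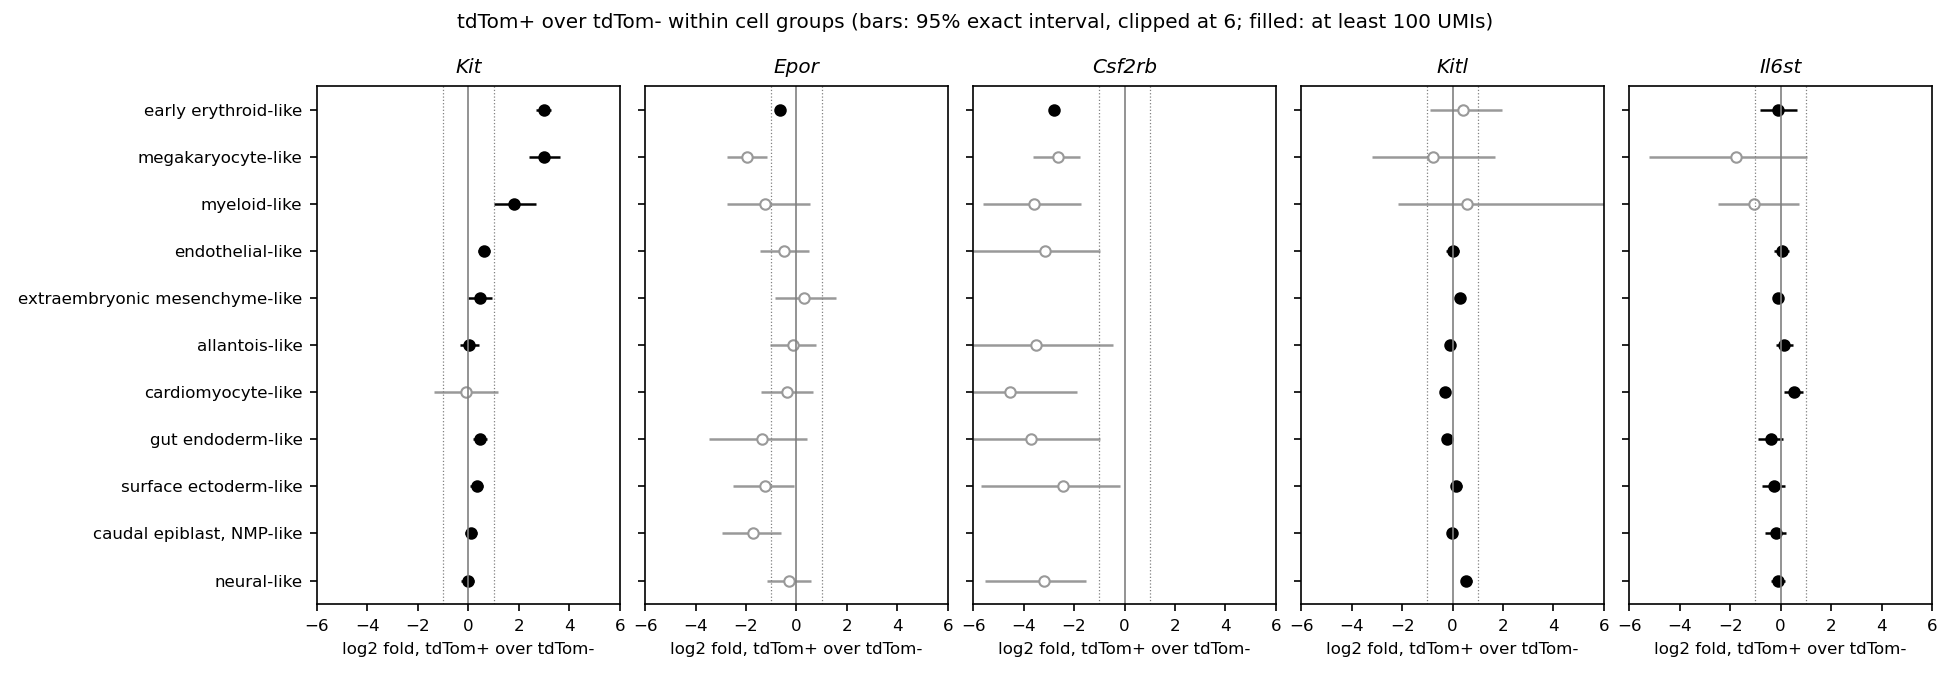
Log2 fold of tdTom+ over tdTom- for 5 of the genes (columns) within cell groups (rows), with bars for the 95% exact interval, clipped at 6, dotted lines at 2-fold, filled points for at least 100 UMIs and no point where a fraction had 0 UMIs. *Kit* lies at 2.98, 2.99 and 1.79 in the early erythroid-like, megakaryocyte-like and myeloid-like groups and at 0.61 in endothelial-like cells, while *Csf2rb* lies at -2.78 in the early group.

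The plot of folds by cell group also shows *Csf2rb* points left of 0 in cells outside blood, all from few UMIs. Over all such cells *Csf2rb* was at 0.0999 CPM (11 UMIs, tdTom+) and 1.30 CPM (140 UMIs, tdTom-). These tdTom- cells also held globin transcripts: *Hba-x* in neural-like cells stood at 0.923% of the level in host erythroid-like cells in the tdTom- library and at 0.0887% in the tdTom+ library. Host erythroid RNA at those shares would carry 1.22 and 0.118 CPM of *Csf2rb*, against 1.52 and 0.169 CPM measured in neural-like cells. In tdTom- cardiomyocyte-like cells, where *Hba-x* was at 1.67%, it would carry 2.21 CPM of *Csf2rb* against 3.06 CPM (1.78 to 4.90) measured. For *Epor* in neural-like cells the same reckoning gives 0.0756 CPM against 1.07 CPM (0.643 to 1.67) measured in tdTom+ cells and 0.786 CPM against 1.30 CPM (0.897 to 1.81) in tdTom- cells. The part of free RNA in these levels was not tested, and the *Csf2rb* folds outside blood are not read as differences in expression. For *Kit* it gives 0.057 CPM against 10.7 CPM measured in the tdTom- neural-like cells. Host erythroid-like cells held *Kit* at only 6.18 CPM, so this value had to be small, and free RNA of tdTom+ progenitors was not reckoned.

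The share of cells with a UMI put *Kit*, *Epor* and *Csf2rb* in the same order over progenitors, early and later erythroid-like cells as the levels did, once each cell was thinned to 5000 spliced UMIs. *Kit* was detected in 39.5% (exact binomial interval 37.0 to 42.1) of tdTom+ progenitors, from 32.0% in sub-cluster 0 to 55.1% in sub-cluster 4, against 5.33% (3.29 to 8.12) of early and 1.22% (0.632 to 2.12) of later erythroid-like cells. *Epor* was detected in 19.1% of progenitors against 31.7% and 34.1% of the erythroid-like cells, and *Csf2rb* in 5.09% (4.01 to 6.37) against 29.9% and 37.0%. Before thinning, at medians of 21537, 18492 and 19320 UMIs per cell, *Kit* was in 77.6%, 20.5% and 6.63%, *Epor* in 55.9%, 73.9% and 78.4% and *Csf2rb* in 12.5%, 54.5% and 64.2% of progenitors, early and later erythroid-like cells. Thinning left out 12, 5 and 27 cells of the 3 groups. Neural-like tdTom- cells, at a median of 15200 UMIs, had *Epor* in 0.619% and *Csf2rb* in 0.743% of thinned cells, far below the blood cells. Cardiomyocyte-like tdTom- cells, at a median of 15260 UMIs, had *Kit* in 0.597% (0.0724 to 2.14). The *Kit* share of early erythroid-like cells stood above that interval, while that of later ones overlapped it and is not read as expression at this depth.

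**Figure D3:**
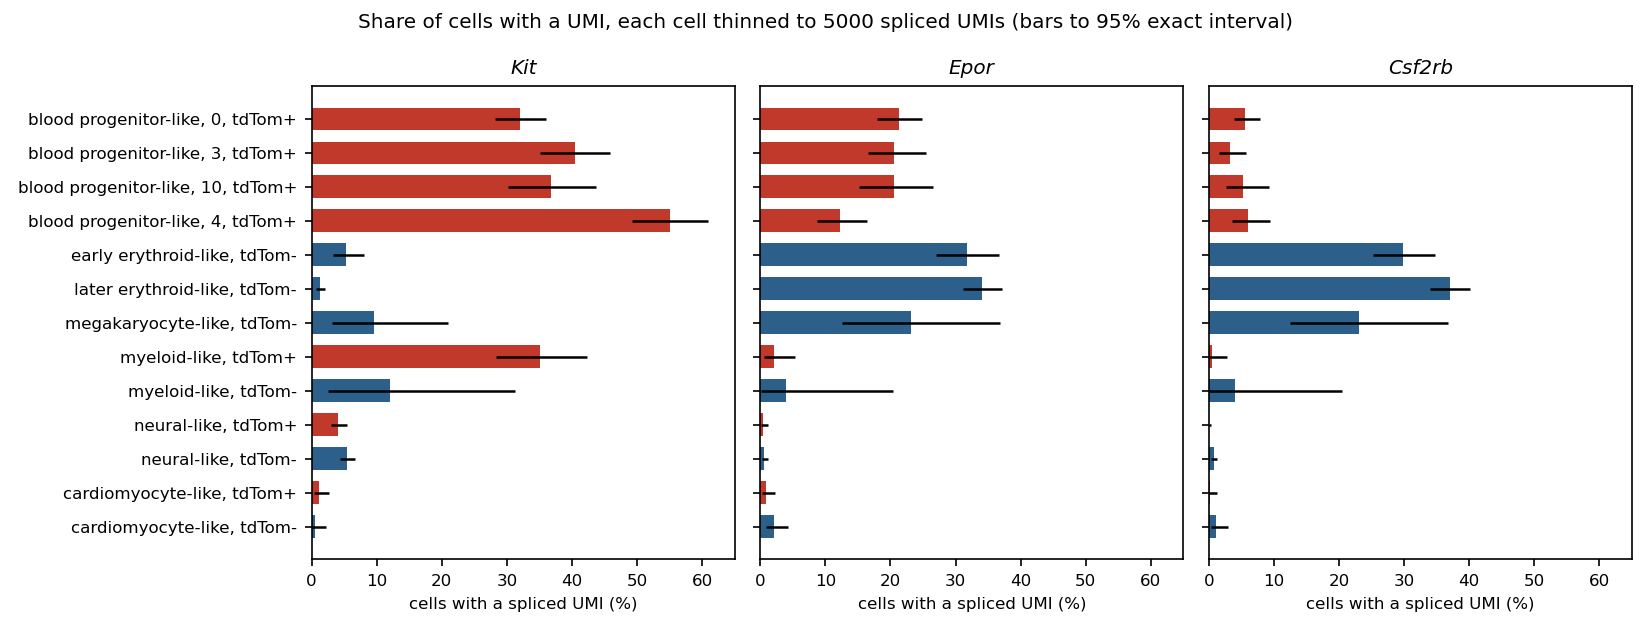
Percent of cells with a spliced UMI of *Kit*, *Epor* and *Csf2rb* after thinning each cell to 5000 spliced UMIs, by cell group, in red for tdTom+ and blue for tdTom-, with bars from 0 and lines for the 95% exact binomial interval. *Kit* is found in 32.0% to 55.1% of the cells of the 4 progenitor sub-clusters and in 5.33% and 1.22% of early and later erythroid-like cells, and *Csf2rb* in 29.9% and 37.0% of the latter.

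The unspliced layer counts molecules that still hold intron sequence. Over all kept cells of the tdTom+ and tdTom- library, 28.3% and 29.8% of *Kit* UMIs were unspliced, 33.4% and 38.3% of *Kitl*, 40.2% and 41.6% of *Il6st*, 8.21% and 6.11% of *Csf2rb* and only 1.15% and 1.11% of *Epor*. The median over genes with at least 100 UMIs was 22.3% in both. The low share of *Epor*, a gene of 4.61 kb beside 81.8 kb of *Kit*, was close between the fractions.

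In the early erythroid-like comparison unspliced *Kit* was at 368 against 59.8 per 1000000 unspliced UMIs, a log2 fold of 2.62 (2.22 to 3.05). Unspliced *Csf2rb* was at 11.6 against 43.4 on this scale, a log2 fold of -1.91 (-2.58 to -1.23), and unspliced *Epor* at 3.86 against 10.6 from 14 and 9 UMIs, a log2 fold of -1.45 (-2.76 to -0.06). The unspliced molecules of the 3 receptors thus had the direction of the spliced ones. For *Csf2rb* the unspliced fold was the smaller, and its interval does not overlap the spliced one (-2.96 to -2.61). In myeloid-like cells unspliced *Kit* was at 229 against 143, and its log2 fold (0.68, -0.29 to 1.84) was smaller than the spliced one (1.79) and its interval included 0. In endothelial-like cells unspliced *Kit* was at 147 against 155 on this scale, a log2 fold of -0.08 (-0.39 to 0.23), where spliced *Kit* was 1.53-fold higher. There, 27.9% (24.6 to 31.3) of *Kit* UMIs were unspliced in tdTom+ and 39.5% (34.6 to 44.6) in tdTom- cells, and these intervals do not overlap.

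Unspliced shares also differed by cell type. *Il6st* was 63.9% (58.1 to 69.3) unspliced in tdTom+ and 59.8% (52.3 to 66.9) in tdTom- blood cells, against 38.8% and 41.0% outside blood and endothelium. Within blood it was at 66.9% in tdTom+ progenitors and 61.2% in tdTom- erythroid-like cells. In myeloid-like cells it was at 39.4% (22.9 to 57.9) where tdTom+ and 28.6% (3.67 to 71.0) where tdTom-. *Csf1r* was 15.6% (8.32 to 25.6) unspliced in tdTom+ myeloid-like cells, where it was expressed, and 77.5% in both fractions outside blood and endothelium, where it had 20 and 18 spliced UMIs. *Csf1r* overlaps *Hmgxb3* on the other strand, and whether strand was used in counting was not given in the sources used here.

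**Figure D4:**
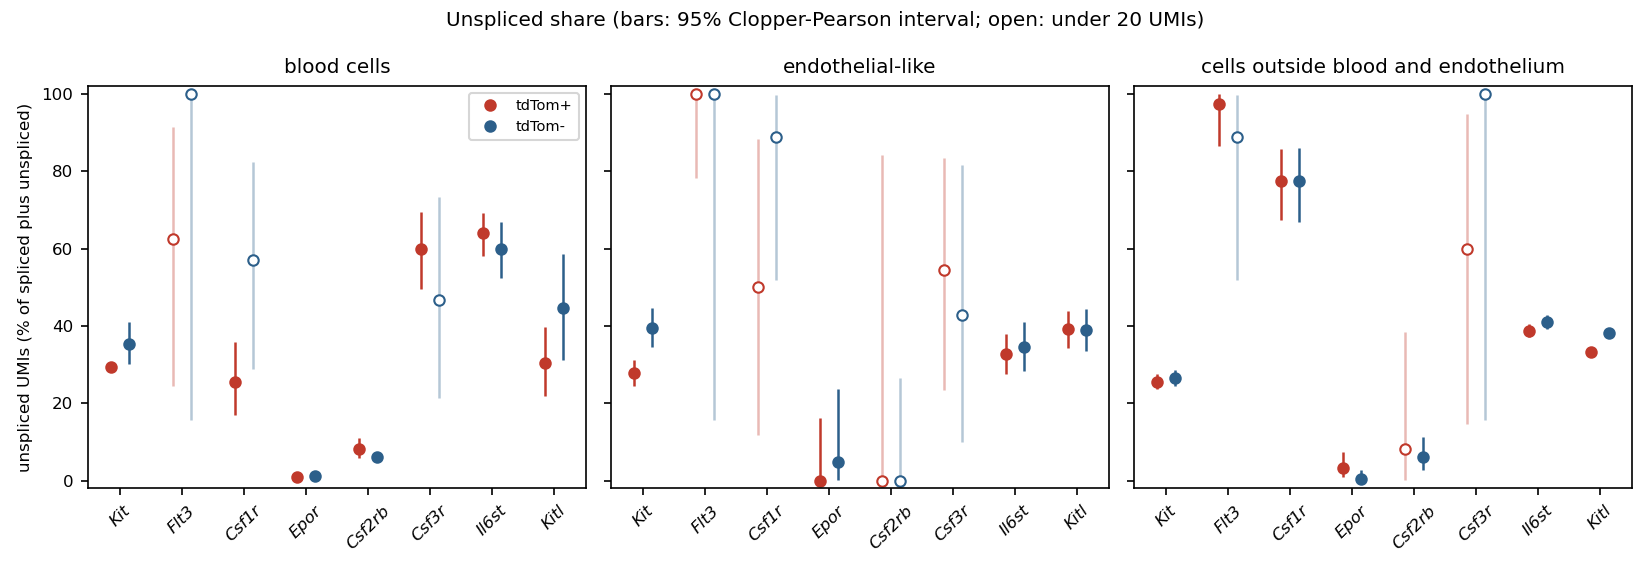
Percent of UMIs that were unspliced for each gene in blood cells, endothelial-like cells and all other cells, with tdTom+ in red, tdTom- in blue, bars for the 95% Clopper-Pearson interval and open points for under 20 UMIs. *Il6st* is at 63.9% and 59.8% in blood against 38.8% and 41.0% in other cells, and *Kit* in endothelial-like cells is lower in tdTom+ than in tdTom- cells.

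The plot of unspliced shares has wide bars for *Flt3*, *Csf1r* and *Csf3r*, whose counts were small in most groups. The genes whose levels ran closest to each receptor across the 76 cell groups are given as a description, by Pearson's r on the same scale. For *Epor* they included *Cited4* (r of 0.952) and *Klf1* (0.940), and for *Csf2rb* *Gata1* (0.954) and *Mrap* (0.95). For *Csf1r* they were *Tyrobp* (0.886), *Lst1* (0.879) and *Fcgr3* (0.854), and for *Csf3r* they included *Lst1* (0.878) and *Ptgs1* (0.876). Less close were those of *Kit*, with *Vps36* (0.707), *Galnt1* (0.697) and *Zfp36l2* (0.692), of *Kitl*, with *Peg3* (0.771), *Bmp4* (0.765) and *Unc5b* (0.755), and of *Il6st*, with *Copg1* (0.797), *Ssr3* (0.797) and *Xbp1* (0.794). For *Flt3* they were *Ascl2* (0.783), *Utf1* (0.740) and *Rgcc* (0.735), which rests on 5 spliced UMIs. With 1 CPM added in place of 10, *Klf1*, *Mrap*, *Zfp36l2*, *Bmp4*, *Ssr3*, *Xbp1*, both genes given for *Csf3r* and all 3 of *Flt3* were no longer among the 3 closest. Among the 8 genes, *Epor* and *Csf2rb* had an r of 0.91 and *Csf1r* and *Csf3r* one of 0.83.

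The other genes of these pathways were taken as lists of 12 ligands, 15 receptors and 20 signalling genes. In the early erythroid-like comparison 7 of 15 receptors had at least 100 UMIs, of which 4 were higher and 1 lower past 2-fold, with a median log2 fold of 1.19 beside 0.08 over all genes. Of the 20 signalling genes 15 could be measured, of which 6 were higher and 0 lower, with a median of 0.77, and none of the 12 ligands reached 100 UMIs. The largest were *Ptpn6*, the phosphatase that curbs *Kit* and *Epor* signals, at 28.2 against 4.98 CPM (2.50, 2.02 to 3.03), *Il10rb*, a chain of the IL-10 receptor family, at 36.8 against 7.34 CPM (2.33, 1.93 to 2.75), and *Stat5a*, a transcription factor activated by these receptors, at 37.3 against 7.61 CPM (2.29, 1.90 to 2.71). *Gab2*, a docking adaptor, was at 5.72 against 1.52 CPM (1.91, 1.03 to 2.94). The 1 receptor that was lower was *Csf2rb2*, at 2.09 against 9.69 CPM (-2.21, -2.73 to -1.70).

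With the 12 tdTom+ cells of the later erythroid-like comparison, 3 receptors could be measured, 1 higher and 1 lower past 2-fold. Of 9 signalling genes measured there, 3 were higher and 0 lower. In the megakaryocyte-like comparison 1 receptor and 6 signalling genes could be measured, and 1 was past 2-fold, *Ptpn6* at 105 against 48.8 CPM (1.10, 0.64 to 1.59). In the myeloid-like comparison 2 receptors and 8 signalling genes could be measured, and 2 were past 2-fold, *Ifngr1*, a chain of the interferon gamma receptor, at 117 against 57.3 CPM (1.03, 0.46 to 1.66) and *Stat3*, which acts downstream of gp130 and the G-CSF receptor, at 61.7 against 30.8 CPM (1.00, 0.23 to 1.89). In endothelial-like cells 0 of 7 receptors and 0 of 13 signalling genes were past 2-fold. The background shares of these comparisons, given with the members above, hold for the lists too.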

How the data were processed

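Cells of 6 pooled chimeric embryos were sorted into a tdTom+ and a tdTom- fraction, with 1 10x v3 library each. The authors mapped reads with Cell Ranger 3.0.2 to mm10 (GRCm38), called cells with emptyDrops, filtered them with a mixture model and split spliced from unspliced molecules with velocyto. Deposited are UMI counts of each gene in each cell, 1 table per layer and not normalized, and quality metrics with the percent of mitochondrial UMIs (medians of 2.07 and 2.08%). The 8 genes and the gene lists were chosen with earlier results of these data known.

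Scrublet doublets and 1 cluster with over 50% of them were left out. Counts scaled to 10000 per cell and logged were clustered (Leiden, resolution 1.5, then 1 within haemato-endothelial cells on 30 components) without 62 genes. A name needs at least 50 cells and 3 markers raised 2-fold, with 10 CPM added. UMIs were summed per group. Cells of 1 library are not replicates, so no test was run, and no p-value is given. Floors of 3 UMIs apply where a count is 0. All 8 genes are named in each blood and endothelial comparison, together with up to 4 companion genes per direction past 2-fold whose interval excludes 0, and for each of the 8 the 3 genes of highest r, of which some are not reported here. Interval code was tested on simulated data. Alternatives covered cells, matching, scaling, layer and depth. The tools were Python 3.11.15 with scanpy 1.11.5, scikit-learn 1.9.0 and scipy 1.17.1, igraph 0.11.9 and leidenalg 0.10.2 for clusters, pandas 2.3.3 and numpy 2.4.6 for tables, and matplotlib 3.10.9.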

Additional observations from a re-analysis of the deposited data

How the results depend on the processing

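No paired analysis was possible because each fraction has 1 library and no test was run. No log2 fold past 2-fold of a gene with at least 100 UMIs changed sign under any alternative that was run. With fewer UMIs some did. *Il6st* in later erythroid-like cells (1.23) ran from -0.15 to 2.13, and *Csf1r* in endothelial-like cells (1.03) from -1.13 to 1.18. In the early erythroid-like comparison *Kit* ran from 2.64 to 5.39 over 11 alternatives, *Csf2rb* from -2.88 to -2.67 and *Epor* from -0.75 to -0.54. The 5.39 came from subtracting the neural-like level, which leaves little of the host's *Kit*. In the megakaryocyte-like and myeloid-like comparisons *Kit* ran from 2.75 to 3.76 and from 1.46 to 2.26. In endothelial-like cells *Kit* came to 0.37 with spliced plus unspliced UMIs in place of 0.61. With the minimum of 100 UMIs kept, the number of genes past 2-fold moved in 3 comparisons. In later erythroid-like cells, 2 became 4 with spliced plus unspliced UMIs and 1 after the neural-like level was subtracted. In megakaryocyte-like cells, 1 became 3 with cosine distance, which matched 185 tdTom+ cells, and 0 with cells thinned to 5000 UMIs, where fewer counts reach the minimum. Outside blood and endothelium, 1 became 0 with thinned cells and 3 after the subtraction. At a Leiden resolution of 2 no megakaryocyte-like sub-cluster was found, so that comparison has no value there. With at least 20 UMIs in place of 100, 10.2% of genes were higher and 4.22% lower in the early comparison, and with at least 500, 3.46% and 1.97%. In the myeloid-like comparison 9.79% were higher and 5.01% lower at 20 UMIs, and 1.08% and 0.542% at 500. At 20 UMIs *Epor* (-1.26) and *Il6st* (-1.04) would also count as lower in myeloid-like cells, and *Csf2rb* and *Epor* in megakaryocyte-like cells. At 500 UMIs *Kit* would count in neither. Depth limits *Flt3*, *Csf1r* and *Csf3r* in all groups, and the 29 tdTom- myeloid-like and 54 tdTom- megakaryocyte-like cells limit every fold that rests on them.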

Other observations

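*Flt3* had more unspliced than spliced molecules. Over all kept cells it had 58 unspliced UMIs in the tdTom+ and 12 in the tdTom- library, beside 4 and 1 spliced UMIs. Outside blood and endothelium the unspliced UMIs were 38 and 8, a log2 fold of 2.30 (95% exact interval 1.17 to 3.61), and in endothelial-like cells 15 and 2 (2.42, 0.31 to 5.59). Only 5 of the 58 lay in blood cells. The antisense gene *Gm26597* overlaps *Flt3*, and whether these molecules belong to *Flt3* was not tested.

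Within the tdTom+ progenitors, after thinning to 5000 UMIs, *Csf2rb* was detected in 6.80% (4.86 to 9.21) of the 559 cells with a *Kit* UMI and in 3.98% (2.77 to 5.51) of the 855 cells without one. *Epor* was detected in 17.9% (14.8 to 21.3) and 19.9% (17.3 to 22.7) of the same cells. The intervals overlap for both genes, and no lower share in cells with a *Kit* UMI was detectable at this depth. For *Csf2rb* the share in cells with a *Kit* UMI was the higher one. These cells pool the progenitor sub-clusters, of which sub-cluster 4 had the highest *Kit*, the highest *Csf2rb* and the lowest *Epor* level. The split by *Kit* UMI was not made within sub-clusters, so the part of their mix in these shares was not tested.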
